A study of Mus musculus with 2 samples.

Results

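Among the live CD45+ cells sorted from mouse cochleae, 145 of the 1285 cells that could be assigned to 1 condition were mature neutrophils with high Il1b RNA. Il1b encodes the cytokine interleukin-1 beta. The cells were chosen by their RNA alone, from single-cell counts of unique molecular identifiers (UMIs, each standing for 1 captured RNA molecule). A cell counted as a mature neutrophil when S100a8 and S100a9 together reached 300 per 10000 of its UMIs, the granule genes Camp and Ngp together stayed under 300 per 10000, and Mpo and Elane, markers of early precursors, had fewer than 5 UMIs. It counted as Il1b-high when Il1b reached 10 per 10000. The remaining 143 mature neutrophils are called Il1b-low. S100a8, S100a9, Camp, Ngp, Mpo, Elane and Il1b therefore chose the cells, and their values are given only as a description. All other genes of the Il1b-high against the Il1b-low cells come from the same cells that the rule split, and they are likewise described without a test.

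The study compared 4 conditions: sham, and days 3, 7 and 14 after noise exposure. Cochleae of 6 mice were pooled per condition, digested with Accutase, and stained with a CD45 antibody and with 1 hashtag antibody per condition, and living CD45+ cells were sorted. The control is named both as sham treated and as untreated in the labels, and strain, age, sex and noise level are not stated in the sources used here. Each condition is thus 1 pool, the mice within a pool cannot be told apart, and no difference between pools can be tested against the spread between mice. Every interval below is at 95% and reflects counting error alone, and all ratios to sham share the same 19 sham cells. The pools held 19 (sham), 71 (day 3), 30 (day 7) and 25 (day 14) Il1b-high cells. Their UMIs summed to 98892, 347462, 139859 and 123043, in the same order, so day 3 is the best counted pool and sham the least. Because the cells came from a dissociated organ, resident and blood-borne neutrophils cannot be told apart.

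Neutrophils are short-lived phagocytes made in the bone marrow, and they fill their granules in steps before they leave it. Primary granules (Mpo, Elane) are made first, secondary granules (Ltf, Camp, Ngp, Lcn2) later, and gelatinase granules (Mmp8, Mmp9) last. A mature neutrophil that meets microbial or damage signals switches on genes under the transcription factor NF-kB, among them Il1b, chemokines that attract further leukocytes, and inhibitors such as Nfkbia that shut the factor down again. Interleukin-1 beta is made as an inactive precursor and is cut by an inflammasome, of which Nlrp3 is a sensor, so its RNA does not show how much active cytokine is released. Immediate early genes such as Fos, Junb and Dusp1 respond to stimulation without new protein synthesis, and they are also known to respond to enzymatic dissociation of tissue.

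The stretches of DNA in front of 4 of the genes described below are shown, because the results turn on these genes. The NF-kB motif, in the only form searched, was found in the windows of Cxcl2 and Nfkbia and in neither that of Il1b nor that of Ptgs2. Other forms of the motif and sites outside the windows were not searched. The stretches are the RefSeq promoter windows of build GRCm38.p6, from 250 bases before the annotated start to 50 bases after it, written 5′ to 3′ on the strand of the gene. Capitals mark the motifs that a search of both strands found. The Il1b window (chr2:129371090-129371389, minus strand) holds TATAAA beginning 31 bases before the start. The Ptgs2 window (chr1:150099781-150100080, plus strand) holds the C/EBP motif TTGCGCAA beginning 69 bases before it. The Cxcl2 window (chr5:90903649-90903948, plus strand) holds 2 overlapping matches to the NF-kB motif (GGGA and TTCC with any 2 bases between), GGGAATTTCC and GGAATTTCCC, beginning 97 and 96 bases before the start, of which the second is a match on the other strand. The Nfkbia window (chr12:55492598-55492897, minus strand) holds the NF-kB match GGAAATTCCC on the other strand, 29 bases before the start, and TATAAA on the other strand, read here as TTTATA, 19 bases after it.
Il1b: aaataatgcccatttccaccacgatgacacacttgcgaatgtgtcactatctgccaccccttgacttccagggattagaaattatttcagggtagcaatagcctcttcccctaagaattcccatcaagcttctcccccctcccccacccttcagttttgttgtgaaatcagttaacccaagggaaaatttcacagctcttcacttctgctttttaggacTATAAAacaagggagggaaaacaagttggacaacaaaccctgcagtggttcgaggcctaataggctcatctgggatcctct
Ptgs2: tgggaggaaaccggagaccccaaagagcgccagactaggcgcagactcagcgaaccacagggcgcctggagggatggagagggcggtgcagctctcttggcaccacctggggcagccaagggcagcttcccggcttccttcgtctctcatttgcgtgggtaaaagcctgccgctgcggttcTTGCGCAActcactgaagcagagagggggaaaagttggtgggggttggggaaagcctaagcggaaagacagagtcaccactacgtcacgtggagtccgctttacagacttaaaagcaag
Cxcl2: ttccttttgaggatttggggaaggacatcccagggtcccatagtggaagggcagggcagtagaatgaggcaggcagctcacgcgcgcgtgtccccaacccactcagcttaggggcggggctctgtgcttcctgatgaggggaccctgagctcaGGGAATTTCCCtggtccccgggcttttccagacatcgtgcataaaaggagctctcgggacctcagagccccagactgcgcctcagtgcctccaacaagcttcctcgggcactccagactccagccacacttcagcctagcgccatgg
Nfkbia: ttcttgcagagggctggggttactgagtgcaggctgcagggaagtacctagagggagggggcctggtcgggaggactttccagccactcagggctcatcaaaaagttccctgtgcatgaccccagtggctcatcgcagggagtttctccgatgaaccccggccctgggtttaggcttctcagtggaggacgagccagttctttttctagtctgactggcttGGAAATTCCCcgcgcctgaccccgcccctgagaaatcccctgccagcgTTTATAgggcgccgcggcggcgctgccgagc

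A motif match is a description of letters and not of a bound site. In all, 5 motifs were searched in all 32851 windows: GGGA and TTCC with any 2 bases between for NF-kB, TGANTCA for AP-1, TGACGTCA for CREB and ATF factors, TTGCGCAA for C/EBP and TATAAA. These were found in 1.47%, 7.81%, 1.79%, 0.183% and 13.6% of the windows. Of the 20 genes listed below as farthest above the Il1b-low cells, 17 had a window, 21 windows in all. The NF-kB motif was found in 4 of these 21 windows (Cd300ld, Csf3r, Cxcl2 and Nfkbia), the AP-1 motif in 1 (Fgl2), the CREB and ATF motif in 1 (Dusp1), the C/EBP motif in 0 and TATAAA in 3 (Gadd45b, H2-Q10 and Nfkbia). The genes were chosen with values in view, so these counts carry no test.

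Il1b-high cells made up 38.8% of the mature neutrophils in the sham pool (19 of 49, Clopper-Pearson interval 25.2 to 53.8%), 53.0% on day 3 (71 of 134, 44.2 to 61.7%), 51.7% on day 7 (30 of 58, 38.2 to 65.1%) and 53.2% on day 14 (25 of 47, 38.1 to 67.9%). The share was lowest in sham, and its interval overlapped that of each day. Of all cells with 1 hashtag, Il1b-high cells made up 5.57% in sham, with an interval of 3.39 to 8.57%. The share was 12.9% on day 3 (interval 10.2 to 16.0%), 13.9% on day 7 (interval 9.57 to 19.2%) and 14.1% on day 14 (interval 9.35 to 20.1%). The intervals of the 3 days did not overlap that of sham, but this held only on day 3 in the wider class described below. Il1b-low cells were 8.80% in sham, 11.4% on day 3, 13.0% on day 7 and 12.4% on day 14. All are shares of sorted cells, so fewer cells of another type and more neutrophils cannot be told apart, and how the sort recovered each type was not tested.

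Il1b stood at 10.9, 42.9 and 133 per 10000 UMIs in the lowest, median and highest sham cell. The same values were 10.2, 53.8 and 216 on day 3, 10.4, 45.5 and 226 on day 7, and 14.1, 50.5 and 190 on day 14. The medians of the 4 pools thus lay within the spread of single cells of any one of them. The rule drew a line through a sparse range: 122 of the 145 cells had at least 20 per 10000, 23 had 10 to 20, and 88 of the 143 Il1b-low cells had no Il1b UMI at all. The 4 cells just inside the line had 10.2 (day 3), 10.4 (day 7), 10.6 (day 3) and 10.9 (sham) per 10000. The 4 just outside had 9.45 (day 7), 9.44 (day 3, with 1 UMI), 9.32 (sham) and 8.70 (sham). Il1b-high cells held as few as 1 Il1b UMI on day 3 and 2 on day 14. Il1b-low cells held as many as 12 in sham and 14 on day 3.

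The bound on S100a8 and S100a9 did not fall in a gap. S100a8 and S100a9 encode calprotectin, the main cytosolic protein of neutrophils. Together they had a median of 2223 (sham), 2208 (day 3), 2994 (day 7) and 3046 (day 14) per 10000 in Il1b-high cells, against 3827, 3879, 3963 and 3894 in Il1b-low cells, and Il1b-high cells reached down to the bound of 300. Cells just inside it had 302, 304, 322 and 345 per 10000, and cells just outside had 293, 289, 287 and 286. A further 11 sham, 18 day 3, 4 day 7 and 5 day 14 cells had 20 to 300 per 10000 of S100a8 and S100a9, at least 5 per 10000 of Csf3r, the receptor for the neutrophil growth factor G-CSF, and Il1b above the line. That these cells are neutrophils was not tested beyond S100a8, S100a9, Csf3r and the bounds on Camp, Ngp, Mpo and Elane. With them the Il1b-high cells would number 30 in sham, 89 on day 3, 34 on day 7 and 30 on day 14. These would be 49.2%, 58.2%, 53.1% and 57.7% of the mature neutrophils so widened. Of all cells with 1 hashtag, they would make up 8.80% in sham (interval 6.01 to 12.3%) and 16.2% on day 3 (interval 13.2 to 19.5%). The share of day 7 would be 15.7% (interval 11.2 to 21.3%) and that of day 14 would be 16.9% (interval 11.7 to 23.3%), and both intervals overlapped that of sham. This wider class was chosen after seeing the data, it adds the largest part to the sham pool, and of 48 results for genes named below as highest or lowest on a day, 10 no longer reach 1.5-fold in it. Each of the 10 is given with its value in the wider class.

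**Figure D1:**
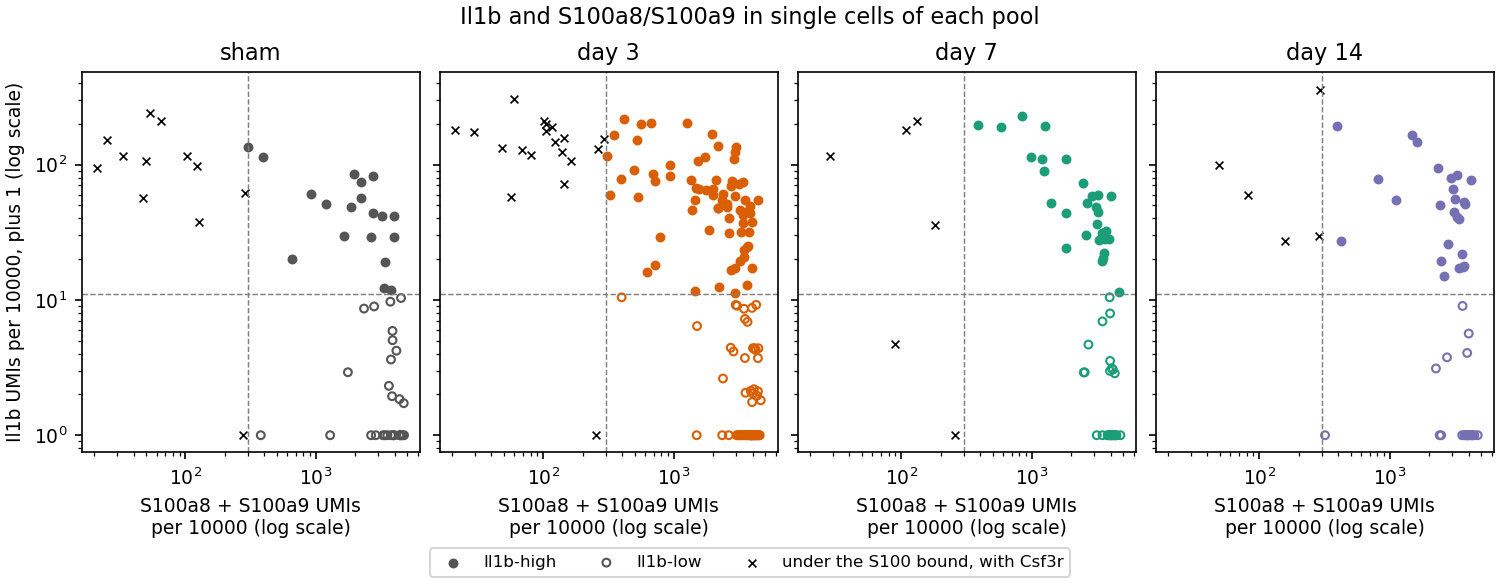
Each point is 1 cell of the pool named above the panel. The horizontal axis shows S100a8 plus S100a9 and the vertical axis Il1b plus 1, both in UMIs per 10000 on log scales; filled circles are Il1b-high and open circles Il1b-low cells, and crosses are cells under the bound of 300 that hold Csf3r. The dashed lines mark the bounds, and most crosses, 11 of them high in Il1b in sham and 18 on day 3, continue the filled cloud to the left.

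Il1b-high cells held 48.1% of all Il1b UMIs of their pool in sham (432 of 899), 50.8% on day 3 (2091 of 4113), 70.5% on day 7 (802 of 1138) and 70.2% on day 14 (708 of 1008). Outside the mature neutrophils, 12 sham, 32 day 3, 7 day 7 and 8 day 14 cells also reached 10 per 10000. Of these, 11, 18, 4 and 5 were the cells under the S100 bound that would join the wider class, in the same order. In sham they were nearly all of the outside cells past the line, so the shares above depend on that bound. The share of Il1b UMIs in the wider class was not computed. Il1b summed over Il1b-high cells was 4368 counts per 1000000 UMIs (CPM) in sham, 6018 on day 3, 5734 on day 7 and 5754 on day 14. In the wider class it was 6172, 7276, 6248 and 6543 CPM in the same order. Il1b chose the cells, so these levels are a description. The gene itself lies on chromosome 2 at 129364570 to 129371139, minus strand (GENCODE vM21, GRCm38).

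The cells carried markers of mature neutrophils, S100a8 and S100a9 by the rule. Of 10 listed neutrophil identity genes, 0 were at least 1.5-fold higher than in sham on any day. On days 3, 7 and 14, 1, 2 and 1 were lower, against 14.9%, 15.9% and 16.7% of all genes. Compared with Il1b-low cells, 4 were at least 1.5-fold higher and 1 lower in all 4 pools, against 11.7% and 2.9% of all genes. With the size factors described below, 2 were higher and 3 lower. S100a8 and S100a9 are among the 10 and belong to the rule, with the same bound for both classes. Csf3r had 1426 CPM in sham, 1494 on day 3, 1459 on day 7 and 1422 on day 14, and it was found in all but 1 day 3 and 1 day 14 cell. Cxcr2, the receptor for chemokines such as Cxcl2, had 1668, 1353, 1552 and 1487 CPM, and the matrix protease gene Mmp9 1699, 1433, 1945 and 1755 CPM. The 5 primary granule genes summed to 10.1 CPM in sham, 25.9 on day 3, 7.15 on day 7 and 32.5 on day 14. Of the 6 markers given for these cells, S100a8, S100a9, Csf3r, Il1b, Ccrl2 and Ptgs2, all were detected in every pool, but Ptgs2 had only 5 UMIs in sham. S100a8, S100a9 and Il1b belong to the rule, so their detection was fixed. Csf3r, Il1b and Ccrl2 were at least 1.5-fold higher than in Il1b-low cells in all 4 pools, under both scalings described below. S100a8, S100a9 and Ptgs2 were not, and in sham Ptgs2 was lower than in Il1b-low cells.

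Markers of other cell types were low, with 2 exceptions. Of 10 macrophage and monocyte markers, 9 had a UMI in some pool, and they summed to 546 CPM in sham, 507 on day 3, 551 on day 7 and 398 on day 14, against 837, 1261, 1033 and 1115 CPM in Il1b-low cells. T and NK markers summed to 566 (sham), 265 (day 3), 408 (day 7) and 317 CPM (day 14), of which Cd3d made 536, 239, 400 and 309 CPM. Among 6 mast cell and basophil markers 5, and among 8 cochlear non-immune markers 7, were at 0 in every pool. Dendritic cell markers summed to 30.3 (sham), 121 (day 3), 50.1 (day 7) and 48.8 CPM (day 14), and 1 cell held 38% of their UMIs on day 3, against 449, 1147, 27.9 and 28.0 CPM in Il1b-low cells. Their part in the sham and day 3 levels of Il1b-low cells was not tested. The first exception was 1 day 3 cell with 140 UMIs of B lineage markers, where the next highest cell of the pool had 2. The second was a set of 4 cells with much Camp and Ngp: 112.5 and 89.6 per 10000 in sham, 42.5 on day 7 and 38.7 on day 14, where the next highest cells had 8.61, 12.1 and 13.2. The 2 sham cells had 11022 and 9603 UMIs and held 20.9% of the UMIs of their pool. Some results are therefore also given without the cells with much Camp and Ngp. No doublet caller was run, and whether any of these 5 barcodes held more than 1 cell was not tested.

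Free RNA in the droplets was judged by 377 B lineage cells with a median of 5603 UMIs. S100a8 and S100a9 stood at 480 and 631 CPM there, and 97.1% of these cells had an S100a8 UMI, so a low level of both genes in a cell says little. Il1b had 5.80, Ptgs2 6.44, Cxcl2 4.19, Ccrl2 13.2 and Csf3r 1.61 CPM in the same cells. The levels of these 5 genes in Il1b-high cells were above that in every pool.

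Il1b-high cells held fewer UMIs than Il1b-low cells, with medians of 4285 against 9268 in sham, 4726 against 9201 on day 3, 4125 against 9082 on day 7 and 5223 against 9066 on day 14. Thinned to 2000 UMIs per cell, they nevertheless showed more genes: medians of 763 against 611 in sham, 718 against 623.5 on day 3, 736.5 against 620 on day 7 and 683 against 599 on day 14. Without thinning the medians were 1365 against 1644, 1297 against 1692, 1263 against 1637 and 1281 against 1580 genes. Thinning left out 7 Il1b-high and 5 Il1b-low cells of fewer UMIs. S100a8 and S100a9 took a smaller part of the RNA in Il1b-high cells: S100a8 had 111637 (sham), 105919 (day 3), 120950 (day 7) and 129597 CPM (day 14) there, against 165950, 155681, 171801 and 167815 CPM in Il1b-low cells.

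Beside Il1b itself, Il1b-high cells differed from Il1b-low cells by more chemokine, receptor and immediate early RNA and by less granule RNA, in each of the 4 pools. Of 1346 genes with at least 20 UMIs in both classes together in every pool, 157 were at least 1.5-fold higher in all 4 pools (11.7%) and 39 at least 1.5-fold lower (2.9%). These proportions depend on the scaling, because S100a8 and S100a9 fill much of the total in Il1b-low cells. The median of all log2 ratios lay at 0.32 in sham, 0.22 on day 3, 0.34 on day 7 and 0.33 on day 14. With median-of-ratios size factors, which lowered the log2 ratios by 0.39, 0.27, 0.34 and 0.33, 72 genes were higher and 89 lower. Counts of list members are therefore given under both scalings. They are read against the shares of all genes, 11.7% higher and 2.9% lower, or 72 and 89 of 1346 genes with size factors.

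The chemokines measured in every pool were Cxcl2, Ccl3, Ccl4 and Ccl6, 4 of 14 listed genes. All 4 were at least 1.5-fold higher than in Il1b-low cells in every pool, under both scalings. This held for 11.7% of all genes under the total-count scaling and for 72 of 1346 with size factors. Cxcl2, a ligand of Cxcr2 that draws in neutrophils, had 2589 CPM in sham, 2481 on day 3, 558 on day 7 and 2625 on day 14, against 449, 875, 152 and 426 CPM in Il1b-low cells. Ccl3, a ligand of the receptor Ccr1, had 283 (sham), 417 (day 3), 279 (day 7) and 496 CPM (day 14), against 30.4, 34.1, 59.8 and 11.2 CPM. Its neighbour Ccl4 had 708, 656, 665 and 813 CPM, against 137, 232, 35.9 and 61.6 CPM. Ccl6, a chemokine of rodent myeloid cells, had 2983, 3350, 3554 and 2901 CPM, against 1020, 1032, 1176 and 1395 CPM. Cxcl1 had 3 and Cxcl3 5 UMIs in all Il1b-high cells together, so the CXC chemokine signal of these cells was nearly all Cxcl2. On day 3, where 7 chemokines were measured, 5 were higher and 2 lower, and the share of all genes there was not computed. The lower 2, Cxcl10 and Ccl2, had 0 UMIs in Il1b-high cells, against 37 and 41 UMIs in Il1b-low cells. Il1b-low cells of day 3 also held 1147 CPM of dendritic and 1261 CPM of macrophage and monocyte markers. In Il1b-high cells of day 3 these were 121 and 507 CPM. Which cells the 37 and 41 UMIs came from was not tested.

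Of 9 chemoattractant receptors measured, 4 were higher in all 4 pools (Cxcr2, Ccr1, Ccrl2 and Ptafr) and 1 was lower (Ltb4r1). The shares of all genes were 11.7% and 2.9%. With size factors Ccr1 and Ccrl2 remained. Ccrl2, which binds the chemoattractant chemerin without signalling itself, had 890 CPM in sham, 933 on day 3, 358 on day 7 and 496 on day 14, against 129, 49.6, 51.8 and 11.2 CPM in Il1b-low cells. Ptafr, the receptor for platelet-activating factor, had 263 (sham), 236 (day 3), 315 (day 7) and 187 CPM (day 14), against 57.1, 75.9, 128 and 107 CPM. Ltb4r1, the high-affinity leukotriene B4 receptor, had 80.9, 77.7, 78.7 and 73.2 CPM, against 244, 226, 259 and 185 CPM. Pla2g7, an enzyme that degrades platelet-activating factor, also stood among the genes farthest above the Il1b-low cells, by 3.54-fold in sham, 9.44-fold on day 3, 6.84-fold on day 7 and 5.19-fold on day 14.

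Of the interleukin-1 pathway, 4 genes of 20 in the matrix had enough counts in every pool. All 3 that passed 1.5-fold in every pool were higher (Il1b, Nlrp3 and Il1rn), against 11.7% of all genes. Il1b split the classes, so its place among the 3 was fixed by the rule. Nlrp3 had 293 CPM in sham, 371 on day 3, 279 on day 7 and 325 on day 14, against 103, 96.1, 39.9 and 56.0 CPM in Il1b-low cells. Il1rn, the antagonist of the interleukin-1 receptor, had 374 (sham), 325 (day 3), 315 (day 7) and 333 CPM (day 14), against 183, 183, 175 and 213 CPM, and it passed 1.5-fold under the total-count scaling only. The decoy receptor gene Il1r2 had 667, 685, 415 and 480 CPM, against 312, 246, 199 and 347 CPM, and was under 1.5-fold on day 14. Il1a and the signalling receptor gene Il1r1 had 0 UMIs in all 145 cells, and Casp1, which encodes the protease that cuts the cytokine, had 3, 7, 4 and 1 UMIs. The RNA of these cells thus covered the ligand, its antagonist, its decoy receptor and the inflammasome sensor.

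Immediate early genes were the broadest group. Of 14 measured in every pool, 11 were at least 1.5-fold higher than in Il1b-low cells in all 4 pools and 0 lower. With size factors 7 were (Fos, Junb, Jund, Ier5, Dusp1, Zfp36 and Nr4a1) and 0 lower. Under the total-count scaling, 11.7% of all genes were higher and 2.9% lower. Dusp1, a phosphatase that inactivates stress kinases, had 2265 CPM in sham, 2987 on day 3, 1101 on day 7 and 1252 on day 14, against 346, 570, 215 and 291 CPM in Il1b-low cells. Junb, an AP-1 subunit, had 4318 (sham), 5344 (day 3), 2152 (day 7) and 3755 CPM (day 14), against 2104, 1430, 750 and 1188 CPM. Nfkbia, the NF-kB inhibitor, had 1011, 708, 336 and 634 CPM, against 95.1, 180, 63.8 and 185 CPM. Of 5 NF-kB feedback genes measured, 3 were higher in all 4 pools, against 11.7% of all genes. With size factors 2 were (Nfkbia and Tnfaip2). The 14 heat shock and dissociation genes, which partly overlap with immediate early genes, summed to 2285 (sham), 2573 (day 3), 1873 (day 7) and 1999 CPM (day 14) in Il1b-high cells, against 1735, 1938, 1391 and 1468 CPM in Il1b-low cells. Il1b-high and Il1b-low cells of a pool went through the same digestion, and the part of dissociation in these levels was not tested.

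Granule genes stood the other way. Of 9 secondary granule genes measured in every pool, 0 were higher and 7 at least 1.5-fold lower in all 4 pools, under both scalings. Lower in this way were 2.9% of all genes under the total-count scaling, and 89 of 1346 with size factors. Camp and Ngp are among the granule genes measured and belong to the rule, though both classes had the same upper bound. Ltf, the lactoferrin gene, had 718 CPM in sham, 20.1 on day 3, 200.2 on day 7 and 24.4 on day 14, against 2462, 2774, 2603 and 2421 CPM in Il1b-low cells. Lcn2, which encodes the iron-binding lipocalin 2, had 2730 (sham), 757 (day 3), 1173 (day 7) and 1374 CPM (day 14), against 7237, 6604, 8608 and 8624 CPM. Ly6g, the surface antigen used to sort mouse neutrophils, had 940, 486, 679 and 650 CPM, against 2233, 2290, 2257 and 2393 CPM. Ifitm6, Cd177, Itgb2l, Plac8, Ly6c2 and Gpr27 were lower in the same way; Ly6c1 and Ly6c2 are near-identical copies whose split is uncertain. Lyz2, the lysozyme gene, had 16220, 14356, 13771 and 15694 CPM, against 15779, 14505, 14608 and 15669 CPM, so it differed little between the classes.

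Some surface, survival and iron storage genes also differed. Selplg, Itgal and Sirpa, for the P-selectin ligand, an integrin subunit and an inhibitory receptor, were at least 1.5-fold higher in all 4 pools, and with size factors this held for Selplg and Sirpa but not for Itgal. Selplg had 677.5 CPM in sham, 702 on day 3, 565 on day 7 and 683 on day 14, against 304, 305, 227 and 314 CPM in Il1b-low cells. Of 6 survival and apoptosis genes measured, 2 were higher in all 4 pools (Mcl1 and Gadd45b) and 0 lower. The shares of all genes were 11.7% and 2.9%. With size factors 1 was higher, Gadd45b. With its top cell left out, the ratio of Gadd45b nearest to 1 over the 4 pools was 1.39, under 1.5-fold. Mcl1, which protects neutrophils from apoptosis, had 2073 (sham), 2268 (day 3), 1902 (day 7) and 1951 CPM (day 14), against 1096, 962, 718 and 1059 CPM. The ferritin chain genes Fth1 and Ftl1, for iron storage, were 1.63 to 2.54 times and 1.92 to 2.10 times as high as in Il1b-low cells under the total-count scaling, and neither reached 1.5-fold in all 4 pools with size factors. Csf3r was 3.38-fold higher in sham, 4.21-fold on day 3, 3.55-fold on day 7 and 3.21-fold on day 14. Other genes farthest above the Il1b-low cells were the kinase gene Pim1, the niacin receptor gene Hcar2, Fgl2, Marcks, Tspan13, St8sia4 and the inhibitory or activating receptor genes Cd300a, Cd300ld and Sirpb1c; the last 3 belong to families of similar genes, as does H2-Q10, and their counts are uncertain.

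**Figure D2:**
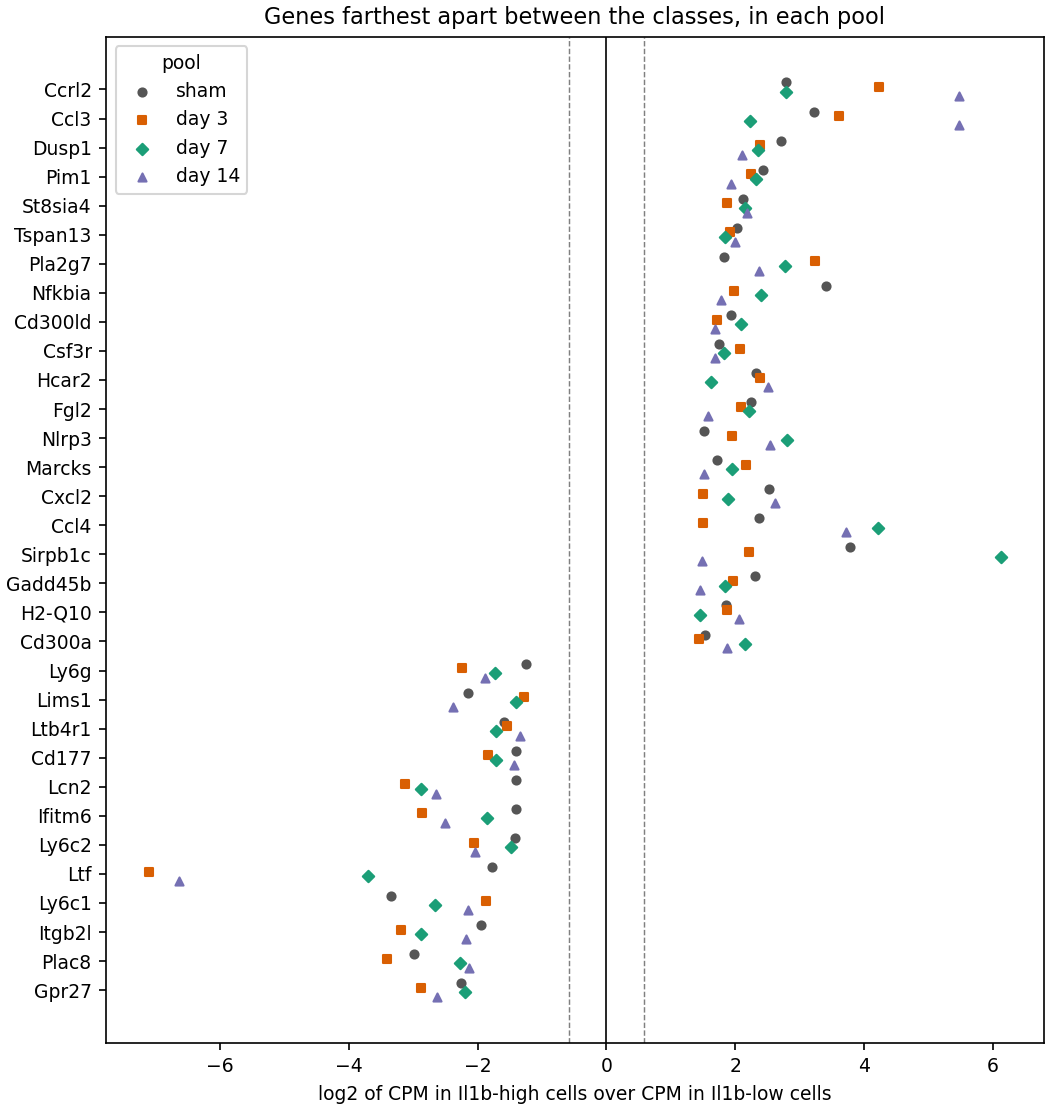
The horizontal axis shows the log2 of the CPM in Il1b-high cells over the CPM in Il1b-low cells, and each symbol is 1 pool; the dashed lines mark 1.5-fold. Genes are in the order of the pool with the smallest difference, and for the 20 upper and 12 lower genes all 4 pools lie on the same side, which the choice of these genes fixes.

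The remaining results compare Il1b-high cells after noise with Il1b-high cells of the sham pool, and the rule did not use the condition of a cell. A gene was measured where it had at least 20 UMIs in both pools together. On day 3, 401 of 2247 measured genes were at least 1.5-fold higher (17.8%) and 335 at least 1.5-fold lower (14.9%). On day 7 these were 184 (13.2%) and 222 (15.9%) of 1394 genes, and on day 14 they were 151 (11.6%) and 218 (16.7%) of 1302 genes. These shares are the background against which each list is read, and at a minimum of 50 UMIs day 3 had 127 higher and 89 lower of 1077 measured genes.

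The gene of the inducible prostaglandin synthase, Ptgs2 (chromosome 1, 150100031 to 150108227, plus strand), stood out on day 3. It had 5 UMIs in sham, 262 on day 3, 29 on day 7 and 67 on day 14, or 50.6, 754, 207 and 544.5 CPM. Its ratio to sham was 14.9 (6.31 to 46.3) on day 3, 4.10 (1.57 to 13.6) on day 7 and 10.8 (4.39 to 34.2) on day 14. In Il1b-low cells it had 64.7 (sham), 77.5 (day 3), 31.9 (day 7) and 5.60 CPM (day 14), so day 3 stood close to sham there. The size of the ratio rests on the sham cells: with the cells under the S100 bound, Ptgs2 had 133 CPM in sham, 758.5 on day 3, 310 on day 7 and 575 on day 14, and the ratios were 5.73, 2.34 and 4.34. Without the cells with much Camp and Ngp the day 3 ratio was 11.8. On day 14, 1 cell held 48% of the UMIs. After thinning to 2000 UMIs, 15.8% of the sham, 41.8% of the day 3, 20.0% of the day 7 and 27.3% of the day 14 cells had a Ptgs2 UMI, against 1.91% of the B lineage cells. Among the other genes of prostaglandin and leukotriene synthesis, Alox5ap, which helps 5-lipoxygenase, had 1476, 1525, 1444 and 1495 CPM, and Alox5 itself 223, 178, 236 and 122 CPM.

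Immediate early genes were mixed on day 3. Of 18 immediate early genes measured, 5 were at least 1.5-fold higher (against 17.8% of all genes) and 2 lower (against 14.9%), with a median log2 ratio of 0.11 where all genes had 0.03. The median of the list was -0.02 without the cells with much Camp and Ngp. Btg2, an antiproliferative gene, had 2656 CPM on day 3 and 1143 in sham, a ratio of 2.33 (1.91 to 2.85). Fos had 3713 CPM on day 3 and 2073 in sham, a ratio of 1.79 (1.54 to 2.09). Egr1 had 757 CPM on day 3 and 374 in sham, and Fosb 213 and 50.6 CPM. In Il1b-low cells Btg2 had 665 CPM on day 3 and 696 in sham. With the cells under the S100 bound the ratios were 1.42 for Btg2, 1.43 for Fos, 0.894 for Egr1 and 1.98 for Fosb, so only Fosb of these 4 stayed past 1.5-fold.

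Of 11 NF-kB feedback genes measured on day 3, 6 were at least 1.5-fold higher (against 17.8% of all genes) and 1 lower (against 14.9%), with a median log2 ratio of 0.63. The median was 0.12 with the cells under the S100 bound and 0.34 without the cells with much Camp and Ngp. With the mean of per-cell CPM it was 0.13. Of the 6 genes, 5 had 15 UMIs or fewer in sham. Nfkbid, an atypical inhibitor of NF-kB, had 233 CPM on day 3 (81 UMIs) and 111 in sham (11 UMIs). Tnfaip2, a gene induced by tumor necrosis factor, had 691 CPM on day 3 and 445 in sham. Both had a ratio of 1.09 in the wider class. On day 7, 0 of 5 measured genes of this list were higher (against 13.2%) and 3 lower (against 15.9%). On day 14, 3 of 6 were higher (against 11.6%) and 2 lower (against 16.7%). The median log2 ratios of these days were -0.60 and 0.15. Osm, which encodes the cytokine oncostatin M, had 601.5 CPM on day 3 and 243 in sham, a ratio of 2.48 (1.62 to 3.96), and 207 and 179 CPM on days 7 and 14. Il6, Il10 and Hbegf had 0 UMIs in all Il1b-high cells, and Tnf had 4, 10, 1 and 4 UMIs in sham and on days 3, 7 and 14.

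Type I interferon response genes were few and uneven. Of 10 measured on day 3, 4 were at least 1.5-fold higher (against 17.8% of all genes) and 0 lower (against 14.9%), with a median log2 ratio of 0.18. On day 7, 1 of 5 was higher (against 13.2%). On day 14, 3 of 6 were higher (against 11.6%) and 2 lower (against 16.7%). Ifitm1, a membrane protein gene that restricts viral entry, had 60.7 CPM in sham, 239 on day 3, 200.2 on day 7 and 195 on day 14, with ratios of 3.94 (1.73 to 11), 3.30 (1.34 to 9.75) and 3.21 (1.28 to 9.62). With the cells under the S100 bound these were 1.68, 1.43 and 1.34. Ifi27l2a had 40.5 (sham), 204 (day 3), 85.8 (day 7) and 154 CPM (day 14), but on day 3 it stood higher in Il1b-low cells, at 1006 CPM, in the pool where that class also held most dendritic marker RNA. Isg15, a ubiquitin-like modifier, had 60.7, 302, 85.8 and 146 CPM, and 1 cell held 94% of its UMIs on day 14 and 37% on day 3. Reads of Ifi27 and Ifi27l2a may be split between these similar genes.

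Other genes named as highest on day 3 were the stress phosphatase subunit Ppp1r15a, with 43 UMIs on day 3 and 0 in sham, which makes it at least 4.08-fold higher against a floor of 3 UMIs in the pool, and Ctcf, with 33 and 0 UMIs, at least 3.13-fold. In the wider class the ratio of Ppp1r15a was 1.07. Genes named as lowest on day 3 were Syne1, Cks2, Cd3d, Hif1a, Fpr2, Sqor, Cdkn2d and Zzef1. Syne1, for a nuclear envelope protein, had a ratio of 0.371, which was 0.646 without the cells with much Camp and Ngp and 0.719 with the mean of per-cell CPM, the last no longer past 1.5-fold. Hif1a, the hypoxia-inducible factor subunit, had 192 CPM in sham (19 UMIs), 63.3 on day 3, 50.1 on day 7 and 24.4 on day 14, and the formyl peptide receptor gene Fpr2 had 465, 216, 179 and 358 CPM. Cd3d, a T cell receptor subunit gene, had 536 CPM in sham, and its level in Il1b-low cells was similar, at 453 CPM in sham.

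On day 7 the immediate early genes and Cxcl2 were lower than in sham. Of 15 immediate early genes measured, 0 were at least 1.5-fold higher (against 13.2%) and 8 lower (against 15.9%), and the median log2 ratio was -0.59 where all genes had -0.02. Junb had 2152 CPM on day 7 and 4318 in sham, a ratio of 0.498 (0.429 to 0.579), or 0.396 in the wider class. Dusp1 had 1101 CPM on day 7 and 2265 in sham, a ratio of 0.486 (0.393 to 0.6). Zfp36, which destabilises cytokine RNAs, had 322 CPM on day 7 and 758 in sham, and Atf3, a stress-induced repressor, 143 and 334 CPM. In Il1b-low cells Junb had 750 CPM on day 7 and 2104 in sham, and Dusp1 215 and 346 CPM, so these genes were lower in that class too. Across the alternatives the median of this list on day 7 stayed between -0.79 and -0.53. The 14 heat shock and dissociation genes summed to 1873 CPM on day 7 and 2285 in sham, and the part of dissociation was not tested.

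Cxcl2 had 78 UMIs on day 7 and 256 in sham, or 558 and 2589 CPM, a ratio of 0.215 (0.165 to 0.279). It also had 2481 CPM on day 3 and 2625 on day 14, so day 7 stood apart from the other 3 pools. After thinning, 57.9% of the sham, 62.7% of the day 3, 20.0% of the day 7 and 54.5% of the day 14 cells had a Cxcl2 UMI. In Il1b-low cells it had 152 CPM on day 7 and 449 in sham. In the wider class the ratio on day 7 was 0.263. Ccrl2 followed with 358 CPM on day 7 and 890 in sham, a ratio of 0.402 (0.278 to 0.575), and 1 cell held 48% of its UMIs on day 7. Nfkbia had 336 CPM on day 7 and 1011 in sham, a ratio of 0.332 (0.230 to 0.474). Thbs1, for the matrix protein thrombospondin 1, had 400.4 CPM on day 7 and 1203 in sham, and Plaur, for the urokinase receptor, 500.5 and 1193 CPM. Ccl3 had 279 CPM on day 7 and 283 in sham, and Ccl4 665 and 708 CPM. In the wider class Ccl3 had 310 CPM on day 7 and 514 in sham, a ratio of 0.603 and so past 1.5-fold lower, and Ccl4 829 and 912 CPM.

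The glucocorticoid response list, which shares Dusp1, Zfp36 and Cebpb with other lists, had 0 of 9 genes higher and 4 lower on day 7, with a median log2 ratio of -0.54, and the same counts with a median of -0.55 on day 14. Of all genes, 13.2% were higher and 15.9% lower on day 7, and 11.6% and 16.7% on day 14. Cebpb, a C/EBP factor of inflammatory genes, had 3701 CPM in sham, 5379 on day 3, 2603 on day 7 and 2519 on day 14. Cxcr4, the receptor that retains neutrophils in the marrow and is higher on aged ones, had 586 CPM on day 7 and 273 in sham, a ratio of 2.15 (1.38 to 3.45), with 383 CPM on day 3 and 414.5 on day 14. Msn, for the cytoskeletal linker moesin, had 202 CPM in sham, 343 on day 3, 536 on day 7 and 447 on day 14. Its ratio on day 7 was 2.65 (1.60 to 4.59), but 1.21 with the cells under the S100 bound. Other genes named as highest on day 7 were Ripor2, S100a6, Myadm, Rgs2 and Ube2b. The ratios of Myadm, Rgs2 and Ube2b were 2.50, 1.65 and 1.93, but 1.31, 1.30 and 1.34 in the wider class.

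On day 14 some immediate early genes were again lower than in sham. Of 16 immediate early genes measured, 0 were at least 1.5-fold higher (against 11.6%) and 6 lower (against 16.7%), with a median log2 ratio of -0.29 where all genes had -0.06. Dusp1 had 1252 CPM on day 14 and 2265 in sham, a ratio of 0.553 (0.447 to 0.681), Atf3 had 56.9 and 334 CPM, and Csrnp1 32.5 and 263 CPM. Junb had 3755 CPM on day 14 and Cxcl2 2625, a ratio to sham of 0.870 (0.761 to 0.994) and 1.01 (0.858 to 1.20). Junb had a ratio of 0.641 in the wider class, past 1.5-fold lower. Ccrl2 had 496 CPM on day 14 and 890 in sham, a ratio of 0.557 (0.395 to 0.781), or 0.391 in the wider class. S100a6, which encodes a calcium-binding protein, had 4945 CPM in sham, 8835 on day 3, 7701 on day 7 and 7973 on day 14, and its ratio to sham was 1.79 (1.62 to 1.97) on day 3, 1.56 (1.4 to 1.74) on day 7 and 1.61 (1.45 to 1.80) on day 14. Without the cells with much Camp and Ngp it was 1.31 on day 7 and 1.32 on day 14. In Il1b-low cells S100a6 was also lowest in sham, with 5742 (sham), 8322 (day 3), 7455 (day 7) and 7033 CPM (day 14). Clec4e, the receptor Mincle that senses damaged cells and mycobacteria, had 821 CPM on day 14 and 475 in sham, a ratio of 1.73 (1.21 to 2.50), or 1.47 in the wider class and 1.46 without its top cell. Lilr4b, Rdh12, Ripor2, Msn, Ifitm1 and Ube2b were the others named as highest on day 14, and Celf2, Slc38a2, Fam32a, Syne1 and Cd84 the others named as lowest. The day 14 ratios of Msn and Ube2b were 2.21 and 1.88, but 1.06 and 1.34 in the wider class.

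**Figure D3:**
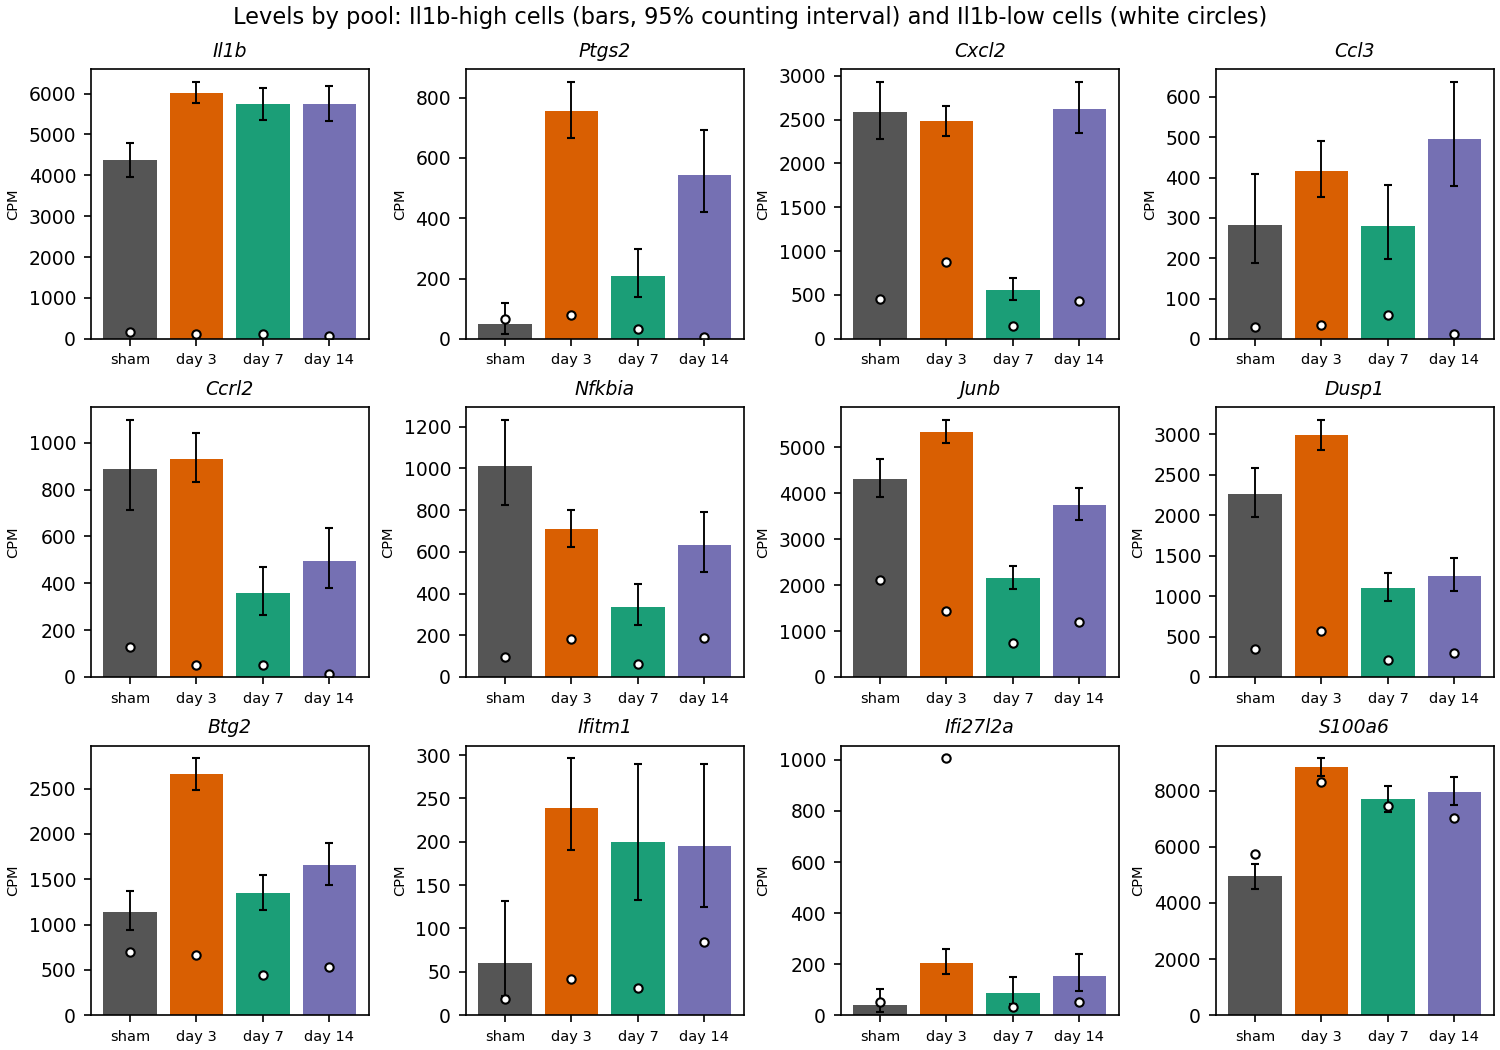
Bars show CPM in the Il1b-high cells of each pool with the 95% counting interval, and white circles CPM in the Il1b-low cells; every vertical axis starts at 0 and has its own scale. Ptgs2 is lowest in sham (50.6 CPM), Cxcl2 is lowest on day 7 (558 CPM), and S100a6 is lower in sham than on each day in both classes.

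**Figure D4:**
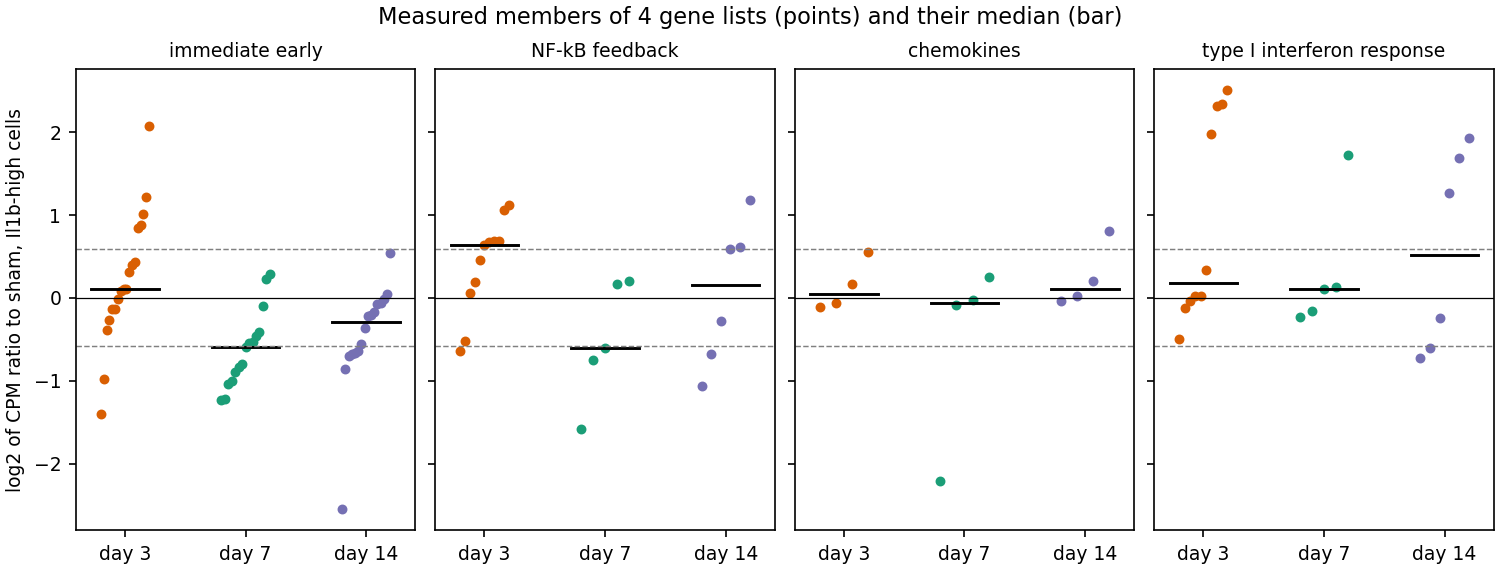
Each point is 1 measured gene of the list named above the panel, in rising order within a day, and the vertical axis is the log2 of its CPM over that of the sham pool in Il1b-high cells; the black bar is the median and the dashed lines mark 1.5-fold. All 3 days are divided by the same sham cells. The immediate early medians are 0.11 on day 3, -0.59 on day 7 and -0.29 on day 14.

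Secondary granule genes were lower on all 3 days, but this rested on the 2 sham cells with much Camp and Ngp. Of 9 measured, 0 were higher and 7, 5 and 6 at least 1.5-fold lower on days 3, 7 and 14, with median log2 ratios of -1.67, -1.22 and -0.99. With the 4 such cells of all pools left out, an alternative chosen after seeing the data, the medians were 0.14, 0.30 and 0.26. Lcn2 then had 664 CPM in sham, 765 on day 3, 1014 on day 7 and 838 on day 14, and Camp 153, 167, 200 and 183 CPM. Receptor genes of cell adhesion and the oxidase subunits showed little difference: of 14 adhesion genes measured on each day, 0 were higher and 1 lower on day 3, 1 higher and 0 lower on day 7, and 0 higher and 1 lower on day 14. Among NADPH oxidase and antioxidant genes 0 of 14 were higher and 1 lower on day 3, 1 of 13 higher and 0 lower on day 7, and 1 of 12 higher and 1 lower on day 14. Beside the granule, adhesion and oxidase counts, 17.8%, 13.2% and 11.6% of all genes were higher on days 3, 7 and 14. Those lower were 14.9%, 15.9% and 16.7%. Csf3r had ratios to sham of 1.05 (0.868 to 1.27), 1.02 (0.821 to 1.28) and 0.998 (0.794 to 1.25).

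Il1b-high cells varied widely among themselves. Cxcl2 ranged from 0 to 128.5 per 10000 UMIs in sham cells with a median of 8.33, from 0 to 154 on day 3 with a median of 4.88, from 0 to 72.7 on day 7 with a median of 0, and from 0 to 146 on day 14 with a median of 2.99. Ptgs2 had a median of 0 in sham and highest value of 7.64, a median of 1.27 and highest value of 77.0 on day 3, a median of 0 and highest value of 15.6 on day 7, and a median of 0 and highest value of 61.3 on day 14. Ccl3 was found in 4 of 19 sham, 25 of 71 day 3, 9 of 30 day 7 and 8 of 25 day 14 cells, and 1 cell held 64% of its UMIs in sham and 38% on day 14. Single cells held 78% of the Ccl4 UMIs on day 14 and 61% of the Gadd45b UMIs in sham. The levels of Ccl3 in sham and of Ccl4 on day 14 were thus set mostly by 1 cell each. Cxcl2 was found in 15 of 19 sham, 53 of 71 day 3, 12 of 30 day 7 and 16 of 25 day 14 cells. Csf3r was found in 19 of 19, 70 of 71, 30 of 30 and 24 of 25 cells.

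**Figure D5:**
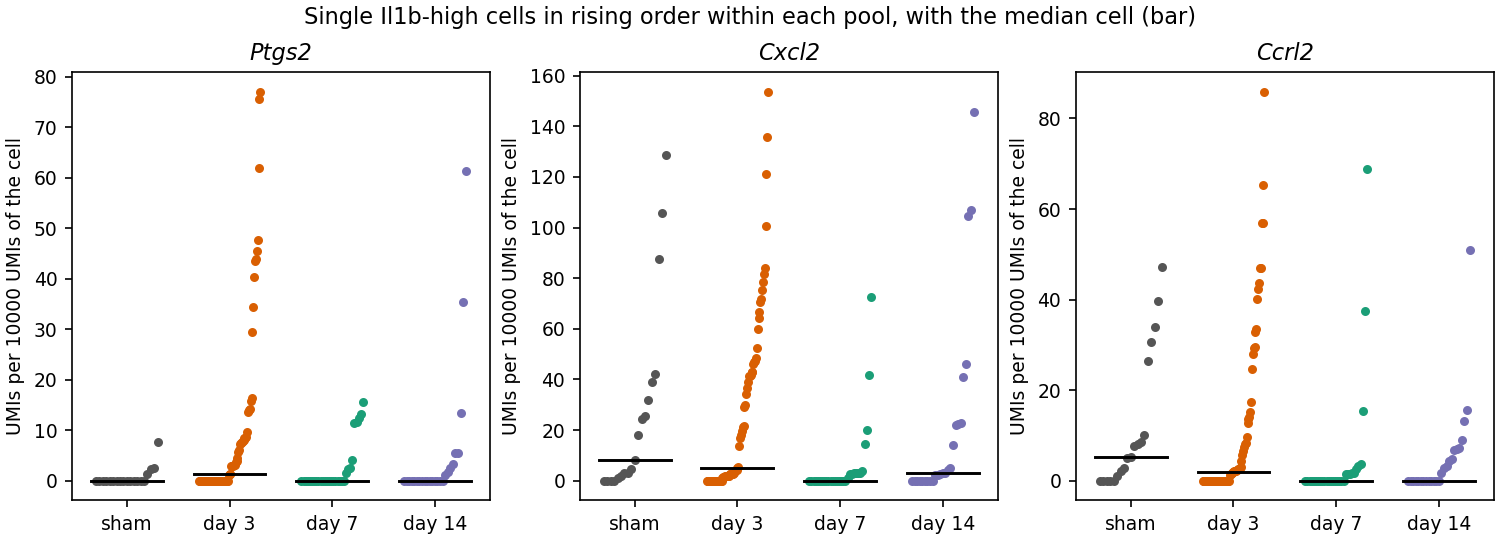
Each point is 1 Il1b-high cell, in rising order within its pool, and the vertical axis shows the UMIs of the gene per 10000 UMIs of the cell; the black bar is the median cell. Medians of Ptgs2 are 0, 1.27, 0 and 0 in sham and on days 3, 7 and 14, and the highest cells reach 7.64, 77.0, 15.6 and 61.3.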

How the data were processed

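Droplet libraries were made from living CD45+ cells of 4 hashtagged pools. The deposited matrices hold whole-number UMI counts per gene and per hashtag, written by Cell Ranger 3.1.0 per the file headers, on mm10 per the submitters' processing notes. The labels give 2 kit versions. Neither the choice of barcodes as cells nor the use of strand in counting is given in the sources used here. Of 1556 barcodes, 1377 had at least 200 genes and at most 10% mitochondrial UMIs, and 1285 of these had a leading hashtag of at least 10 UMIs and 80% of hashtag UMIs (341 sham, 551 day 3, 216 day 7, 177 day 14). No doublet caller was run, so only doublets between pools were removed. UMIs were summed per class and pool and divided by the class total (CPM). Ratios carry exact conditional Poisson 95% intervals and shares Clopper-Pearson intervals, for counting error only. A gene at 0 was set to a floor of 3 UMIs per pool for a bound, and no fold was given where both sides had 3 or fewer. There are no replicates and so no p-values. Per day, the 8 highest and 8 lowest genes were named by the interval bound nearest to 1, from those past 1.5-fold with 30 UMIs or more in both pools together; between the classes, the 20 and 12 genes whose weakest pool was farthest from 1. Mitochondrial, ribosomal, unnamed, receptor segment, Xist, Y-linked and gate genes were left out of that choice. Syne1, Hif1a and other named genes of fewer than 100 UMIs carry wide intervals. The cells, gene lists and naming rule were chosen with earlier results of these data known. Gene positions are from GENCODE vM21 on GRCm38, which held 30934 of 31053 gene IDs, and promoter windows from RefSeq on GRCm38.p6. The ratio script was checked on simulated counts. The scripts ran in Python 3.11.15 with pandas 2.3.3, numpy 2.4.6, matplotlib 3.10.9 and scipy 1.17.1.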

Additional observations from a re-analysis of the deposited data

How the results depend on the processing

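In all, 107 results gave 982 recomputed values under 16 alternative settings. The alternatives for the S100 bound, for cells with much Camp and Ngp and for the B lineage cell were chosen after seeing the data. The share of Il1b-high cells on day 3 was 63.4% with Camp and Ngp under 100 per 10000, and no other share left its counting interval. Counts of genes past 1.5-fold follow the minimum of UMIs: at 50 UMIs there were 127 higher and 89 lower genes on day 3, 31 and 65 on day 7 and 32 and 60 on day 14, and at 5 UMIs 1013 and 1367, 822 and 870, and 747 and 1002. With the top cell of each gene left out 617 genes were higher on day 3. With the cells under the S100 bound 344 genes were lower on day 7 and 336 on day 14. Between Il1b-high and Il1b-low cells, 72 genes were higher and 89 lower in all 4 pools with median-of-ratios size factors. The ratio of Gadd45b nearest to 1 over these pools was 1.39 with its top cell left out, under 1.5-fold. The secondary granule median of log2 ratios changed sign without the cells with much Camp and Ngp, to 0.14 on day 3, 0.30 on day 7 and 0.26 on day 14. It was -1.22 on day 3 with the mean of per-cell CPM and -1.24 with Il1b from 20 per 10000. On day 7 it was -0.91 with each gene's top cell left out, -0.56 with the mean of per-cell CPM, -0.84 with Il1b from 20 per 10000 and -0.93 with the cells under the S100 bound. The NF-kB feedback median on day 7 changed sign to 0.085 at 5 UMIs, and the interferon median on day 14 was -0.60 at 50 UMIs, where other genes are measured. The cause of the other changes was not tested. Of 744 recomputed values of single genes and gene totals, 719 stayed within their counting interval or 1.5-fold range. Some of the 744 could not change, such as the ratio of a gene at another minimum of UMIs. The 719 therefore do not measure how stable the values are. No paired analysis was possible because each condition is 1 pool. The 19 sham cells, with 98892 UMIs, limit every ratio.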

Other observations

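Further groups of genes were compared between the classes. In all 4 pools, 11.7% of all genes were at least 1.5-fold higher and 2.9% lower. Of 12 glycolysis and hypoxia genes measured in every pool, 1 was at least 1.5-fold higher in Il1b-high than in Il1b-low cells in all 4 pools and 0 lower. That gene was Pfkfb4, a regulator of glycolysis, with 132 CPM in sham, 112 on day 3, 136 on day 7 and 114 on day 14, against 57.1, 62.0, 79.7 and 50.4 CPM in Il1b-low cells. The enzyme genes themselves were lower or alike: Gapdh had 971 (sham), 815 (day 3), 930 (day 7) and 910 CPM (day 14), against 1237, 1294, 1399 and 1272 CPM, and Ldha 91.0, 63.3, 136 and 73.2 CPM, against 160, 225, 203 and 118 CPM. Under median-of-ratios scaling 0 of the 12 were higher and 4 lower, against 72 and 89 of all 1346 genes. Between pools, 1 of 13 such genes measured on day 7 was at least 1.5-fold higher than in sham and 4 were lower (Hif1a, Hk3, Aldoa and Pgam1), against 13.2% and 15.9% of all genes, with a median log2 ratio of 0.05. Of 10 pattern recognition genes measured, 3 were higher than in Il1b-low cells in all 4 pools, against 11.7% of all genes. With size factors 1 was, Trem1. Trem1, an activating receptor of neutrophils and monocytes, had 1173, 1333, 987 and 1162 CPM, against 510, 468, 331 and 510 CPM. Tyrobp, the adaptor of several such receptors, had 5683, 6251, 6828 and 6225 CPM, against 3843, 3802, 3640 and 4181 CPM.

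Some genes were absent in spite of high Il1b, and a few others are described after them. Il1a, Il6, Il10, Il12b and Hbegf had 0 UMIs in all 145 Il1b-high cells, and a count of 0 still allows up to 3 UMIs in the sum. The cystine transporter gene Slc7a11 had 1325 CPM in sham, 1566 on day 3, 1058 on day 7 and 1504 on day 14, against 719, 699, 502 and 729 CPM in Il1b-low cells. Acod1, which makes the metabolite itaconate, had 11, 46, 8 and 25 UMIs in the same order of pools, and 1 cell held 52% of them on day 14. BC100530, a stefin gene with near-identical neighbours, had 19 UMIs in sham, 71 on day 3, 68 on day 7 and 136 on day 14. All 19 lay in 1 cell, so its sham level was that of a single cell.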
